A study of Mus musculus with 26 samples.

Results

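The cluster described here consists of 3 microRNA (miRNA) genes, mir-183, mir-96 and mir-182, that lie close together on mouse chromosome 6. They were taken by name from the miRBase entries of a small RNA count table of the mouse hippocampus, as 3 of 1054 miRNA entries. The question here was how much of each was present in the dorsal (dHC) and ventral (vHC) hippocampus, whether acute swim stress (AS) changed them, and whether they varied together. All mice were male C57BL/6J of 2 to 3 months, and both hemispheres were used. Of the 26 libraries, 8 were vHC and 6 were dHC of control mice kept in the home cage, and 6 were vHC and 6 were dHC of mice that swam for 6 min at 18 °C. The swim mice were collected 45 mins after the start of the swim, so that only this time point is covered. No genetic change or drug was applied, and each library is named below by its group and the number in its label.

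A miRNA is cut from a hairpin precursor, and bases 2 to 8 of the mature strand, the seed, pair with target mRNAs and can bring about their repression. The 3 genes are known to be transcribed together into a shared primary transcript, and they are abundant in sensory cells of the retina and the inner ear, where changes in the seed of miR-96 are a known cause of hearing loss. In the mouse hippocampus the cluster has been linked to memory formation. The mature 5p strands are shown because their seeds are alike without being the same. They are taken from RefSeq on GRCm38.p6, read 5′ to 3′, and the seed is in capitals.
mmu-miR-183-5p: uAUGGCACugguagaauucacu
mmu-miR-96-5p: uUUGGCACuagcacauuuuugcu
mmu-miR-182-5p: uUUGGCAAugguagaacucacaccg
With positions counted from 1 at the 5′ end and the base of the miRNA named first written first, the seeds of miR-183-5p and miR-96-5p differed by A2U. Those of miR-96-5p and miR-182-5p differed by C8A, and those of miR-183-5p and miR-182-5p by both A2U and C8A. Over the whole mature strand, seed included, the order of likeness was another: miR-183-5p and miR-182-5p had the same base at 18 of 22 positions, against 13 of 22 for miR-183-5p and miR-96-5p and 12 of 23 for miR-96-5p and miR-182-5p. Among 1738 mature mouse miRNAs of that table, miR-1271-5p carried the seed of miR-96-5p, and 0 others carried the seed of miR-183-5p or miR-182-5p. The seed of the other arm of mir-96, miR-96-3p, was shared with miR-3475-5p, whose precursor mir-3475 was at 88.9 CPM on average (41.5 to 149.8 CPM over the libraries, on the scale explained with the levels).

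The hairpins are shown because the counts are given per precursor: an entry adds up both arms, and neither arm has a value of its own. Capitals mark the 5p and the 3p mature strands.
mmu-mir-183: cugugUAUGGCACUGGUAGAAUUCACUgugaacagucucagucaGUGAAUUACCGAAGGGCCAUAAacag
mmu-mir-96: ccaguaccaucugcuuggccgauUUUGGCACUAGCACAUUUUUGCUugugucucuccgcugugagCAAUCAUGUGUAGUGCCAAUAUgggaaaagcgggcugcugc
mmu-mir-182: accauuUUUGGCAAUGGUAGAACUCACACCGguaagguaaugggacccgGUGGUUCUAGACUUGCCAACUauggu
On GRCm38 the 3 genes lie on the minus strand of chromosome 6, in the order mir-183 (30169668 to 30169737), mir-96 (30169446 to 30169551) and mir-182 (30165918 to 30165992) along the direction of transcription. They span 3820 bp, with 116 bp between mir-183 and mir-96 and 3453 bp between mir-96 and mir-182. In the GENCODE vM21 annotation none of the 3 overlaps another gene, so they are intergenic. The lincRNA Rncr4, known from the retina, lies 3156 bp away on the plus strand, and the nearest protein-coding genes are Nrf1, which encodes a transcription factor (12460 bp away), and Ube2h, which encodes a ubiquitin-conjugating enzyme (41552 bp away).

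Total miRNA counts per library were between 465387 and 4819724, with the lowest in control dHC library 24. The labels carry 3 block dates, called block 1, 2 and 3 here in order of date, and the study's methods describe 3 batches of library preparation. Each group had 2 libraries in every block, apart from control vHC, which had 4 in block 1. Neuronal miRNAs (the mir-124, mir-9 and mir-128 genes) summed to between 156428 and 329023 CPM over the libraries. CPM is the count relative to the miRNA total of the library, here on the scale explained with the levels. Neuronal miRNAs were thus abundant in all 26 libraries of the labelled tissue.

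The cluster was scarce in these libraries. It received 2074 counts in all, or 0.00316% of the miRNA counts, and between 10 and 154 per library. The levels given here are CPM of miRNA counts scaled by the TMM method, which corrects for a few abundant RNAs taking up the library. On this scale mir-182 was at 18.3 ± 7.71 CPM (SD, n = 26) and ranked 328th of the 1054 entries, with 1195 counts. The level of mir-183 was 11.6 ± 4.76 CPM (SD, n = 26), rank 350, with 775 counts. The level of mir-96 was 1.44 ± 0.927 CPM (SD, n = 26), rank 532, with 104 counts.

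Per 100 bases of hairpin the order of the levels was the same, with 24.5 CPM for mir-182, 16.6 for mir-183 and 1.36 for mir-96. This division lowers mir-96 most, as its hairpin has 106 bases against 75 for mir-182 and 70 for mir-183. It assumes that counts grow with the length of the hairpin, which was not tested. The count of mir-182 was above that of mir-183 in 25 of 26 libraries and equal to it in the remaining 1 (control dHC library 32, with 34 of each), with a median ratio of 1.5. The count of mir-96 was below both in every library, with a median ratio of 0.0892 to mir-182 and 0.133 to mir-183. So the 3 genes, although neighbours, did not give equal counts, and mir-182, the farthest from the start of the cluster, gave most.

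Depth sets how much can be said of each. At the median count of 45 for mir-182 and 28.5 for mir-183, counting error alone is 14.9% and 18.7% of the value, and at the median count of 3.5 for mir-96 it is 53.5%. In swim vHC library 15 and swim dHC library 22 the count of mir-96 was 0, which allows levels of up to 1.17 and 2.34 CPM (a floor of 3 counts). The filter on low counts asked for at least 3.83 CPM in 6 libraries, and 2 of the 3 members, mir-183 and mir-182, passed it. Values of mir-96 come from the same fits without the filter, over 1034 entries, an analysis chosen after its counts were seen.

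In vHC of control mice mir-183 was between 5.43 and 16.2 CPM with a median of 11.03 (n = 8), and after swim it was between 7.36 and 26.2 CPM with a median of 9.35 (n = 6). In dHC of control mice it was between 5.73 and 13.1 CPM with a median of 9.93 (n = 6), and after swim it was between 8.15 and 17.2 CPM with a median of 13.5 (n = 6). The 4 groups overlapped, and the highest values, 26.2 and 19.9 CPM, were those of swim vHC libraries 5 and 15, which are the swim vHC libraries of block 1.

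For mir-182 the range in vHC was 8.27 to 28.7 CPM with a median of 18.8 in control mice (n = 8), and 8.86 to 32.04 CPM with a median of 12.9 after swim (n = 6). In dHC it was 10.4 to 24.95 CPM with a median of 16.6 in control mice (n = 6), and 11.3 to 31.4 CPM with a median of 20.9 after swim (n = 6). These groups overlapped as well, and the same swim vHC libraries, 5 and 15, were the highest of their group, at 32.04 and 29.7 CPM.

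The counts of mir-96 were low enough to be given as they are. In control vHC they were 1, 4, 1, 3, 1, 2, 1 and 1 (libraries 1, 7, 9, 13, 17, 23, 25 and 31), or 14 in all. In swim vHC they were 5, 0, 4, 8, 1 and 3 (libraries 5, 15, 19, 21, 27 and 29), or 21 in all. Control dHC had 10, 9, 9, 1, 2 and 4 (libraries 8, 14, 18, 24, 26 and 32), or 35 in all, and swim dHC had 4, 5, 5, 0, 12 and 8 (libraries 6, 16, 20, 22, 28 and 30), or 34 in all. In CPM the medians were 0.572 in control vHC, 1.44 in swim vHC, 2.34 in control dHC and 1.92 in swim dHC. Control vHC was thus the lowest group for mir-96, which was not so for mir-183 or mir-182.

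**Figure D1:**
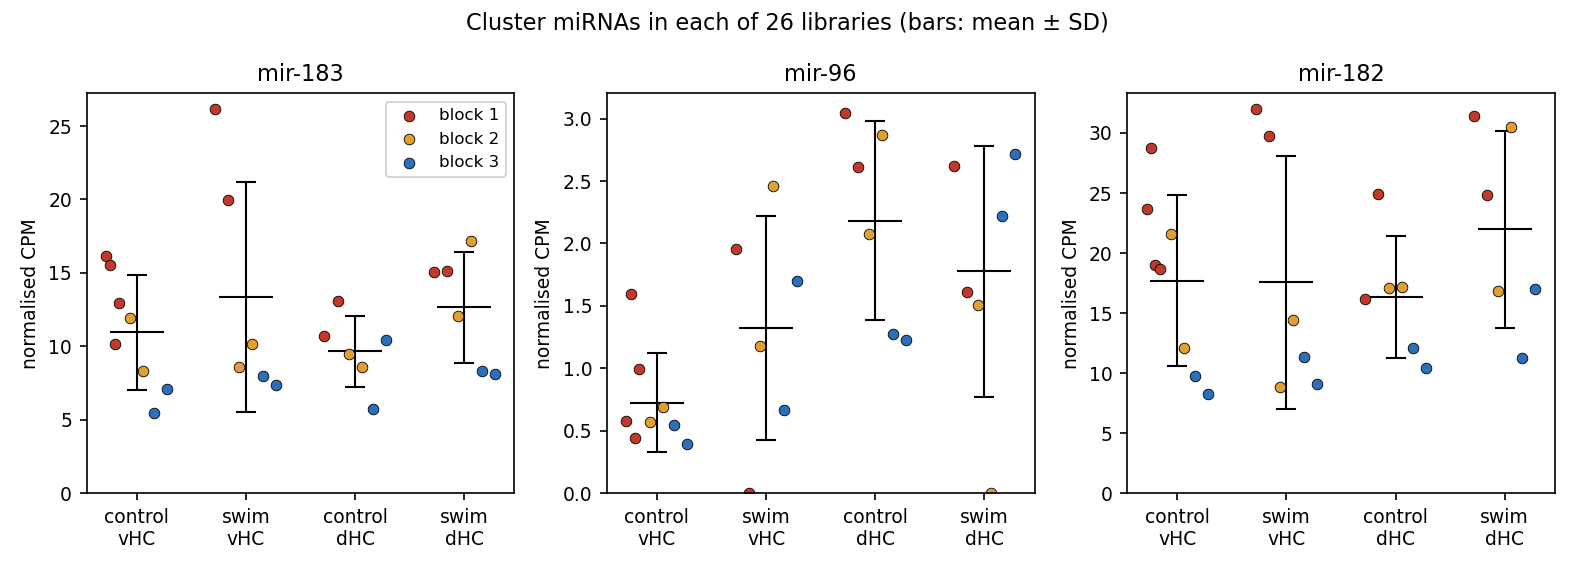
Levels of mir-183, mir-96 and mir-182 (vertical axes, normalised CPM) in each of the 26 libraries by group, with points coloured by block and black bars for the mean and SD of each group. Block 1 libraries stand above block 3 libraries in every group for mir-183 and mir-182, whereas for mir-96 control vHC is the lowest group, with a median of 0.572 CPM against 2.34 CPM in control dHC. The share of all entries with that order of blocks was not counted.

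Acute stress was the comparison the study was designed for. None of the 3 members passed the test for stress in either region. This was so for all entries: of the 463 that passed the filter, 0 (0%) were called at an adjusted p under 0.05 by edgeR in vHC, in dHC or for the interaction of region and stress, and DESeq2 also called 0. At an unadjusted p under 0.05 there were 34 (7.34%) in vHC, 17 (3.67%) in dHC and 23 for the interaction by edgeR. Without the filter 0 of 1034 entries were called in each of these tests. Beside region, stress and the interaction of both, that fit used 2 surrogate variables, estimated per library to absorb variation that many RNAs share.

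In vHC, mir-183 had a log2 difference (swim minus control) of 0.29 (SE 0.21, edgeR adjusted p = 0.693), with a 95% confidence interval of -0.14 to 0.71. For mir-182 it was -0.021 (SE 0.24, edgeR adjusted p = 0.9997), with an interval of -0.51 to 0.47, and its sign turned with DESeq2's size factors and with TMMwsp, a variant of TMM for tables with many zeros. For mir-96 it was 0.80 (SE 0.49, edgeR adjusted p = 0.754), with an interval of -0.19 to 1.78. As folds, the intervals reached from 0.910 to 1.64 for mir-183, from 0.703 to 1.38 for mir-182 and from 0.878 to 3.44 for mir-96. The interval of mir-96 thus includes a rise of more than 2-fold as well as a fall.

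In dHC the log2 difference was 0.31 (SE 0.22) for mir-183 and 0.42 (SE 0.25) for mir-182, both with an edgeR adjusted p of 0.982. Their intervals were -0.14 to 0.77 and -0.093 to 0.93. For mir-96 it was -0.10 (SE 0.36, edgeR adjusted p = 1), with an interval of -0.84 to 0.64. The difference between the regions in the response was 0.026 (SE 0.30) for mir-183 (negative with both of those scalings), 0.44 (SE 0.35) for mir-182 and -0.90 (SE 0.60) for mir-96, with edgeR adjusted p of 0.997, 0.954 and 0.984. Exact permutation tests of the log2 CPM within each region gave adjusted p of 0.558 to 0.895 for the 6 stress comparisons of the members, among 15 tests.

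The differences with stress within blocks rest on 2 to 4 libraries a group. For mir-183 in vHC the difference in log2 CPM in the order of blocks 1 to 3 was 0.73, -0.088 and 0.27, and for mir-182 it was 0.46, -0.49 and 0.16. In dHC the 3 values were 0.33, 0.63 and 0.079 for mir-183 and 0.46, 0.39 and 0.29 for mir-182, all above 0. For mir-96 the values were -0.16, 0.84 and 0.61 in vHC and -0.34, -1.28 and 0.68 in dHC, so that in both regions they differed in sign between blocks.

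Between the regions, mir-183 and mir-182 did not pass the test, and mir-96 was higher in dHC. This was tested with the 4 groups and block in the fit and without surrogate variables, since 91.1% of the variance of the second surrogate variable was explained by region. The log2 difference (dHC minus vHC) was -0.0082 for mir-183 (SE 0.14, edgeR adjusted p = 0.980, interval -0.29 to 0.28), positive with the scalings named above, and 0.21 for mir-182 (SE 0.15, edgeR adjusted p = 0.264, interval -0.091 to 0.52). For comparison, 167 of the 463 entries (36.1%) were called for region in that fit. The interval of mir-183 thus lay within a fold of 0.816 to 1.21.

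For mir-96 the level was 1.98 ± 0.889 CPM (SD, n = 12) in dHC and 0.983 ± 0.700 CPM (SD, n = 14) in vHC. The log2 difference was 0.96 (SE 0.32, edgeR adjusted p = 0.0110), or 1.95-fold with an interval of 1.26 to 3.01. In the fit without the filter 172 of 1034 entries (16.6%) were called, 80 of them higher in dHC (7.74%), and mir-96 ranked 132nd by p. It lost the call with DESeq2 (0.99, adjusted p = 0.0944) and when log2 CPM was permuted within block (0.67, permutation p = 0.0128, adjusted p = 0.0964 over 15 tests). With surrogate variables in place of block the direction turned (-0.20, edgeR adjusted p = 1).

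Among the control mice, 3 of the 5 dHC libraries other than library 24 stood above every vHC library for mir-96, and 7 of 8 vHC libraries stood below those 5. Library 24 is left out of this order, since its 2.87 CPM is 1 count and lies under its floor of 8.61 CPM. Other libraries in the order were under their floors too. These were dHC library 26 (1.27 CPM, floor 1.91), vHC library 23 (0.692 CPM, floor 1.04) and the 5 of 8 vHC libraries that held 1 count. The order is therefore only a description. The log2 difference was 1.47 (SE 0.47, edgeR adjusted p = 0.00853), or 2.78-fold with an interval of 1.46 to 5.28, and 121 of 1034 entries (11.7%) were called in that test, 53 of them higher (5.13%). Without library 24 it was 1.54 (SE 0.47, edgeR adjusted p = 0.00501). An exact permutation test of log2 CPM, added after the values were seen, gave p = 0.00266 and an adjusted p of 0.0400 over 15 tests. Within blocks 1, 2 and 3 the difference in log2 CPM was 1.15, 1.20 and 0.71.

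In control mice the call was lost with DESeq2 (1.53, adjusted p = 0.0902) and without control dHC library 8 (1.33, edgeR adjusted p = 0.0550). With surrogate variables in place of block it was lost too (0.25, edgeR adjusted p = 1). After swim the log2 difference of mir-96 between the regions was 0.45 (SE 0.43, edgeR adjusted p = 0.684), in a test that called 8.99% of entries, and within blocks it was 0.97, -0.92 and 0.78. The region differences in control and in swim mice were not shown to differ, since the test of that difference is the interaction given above.

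For mir-183 the region difference was 0.022 (SE 0.20) in control and -0.038 (SE 0.20) in swim mice, and for mir-182 it was 0.053 (SE 0.21) and 0.37 (SE 0.21). Their edgeR adjusted p were between 0.234 and 0.9994, and 22.5% of entries were called in control and 20.3% in swim mice. In control mice 36 of these calls were higher and 68 lower in dHC, and with DESeq2's size factors 66 were higher and 64 lower.

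**Figure D2:**
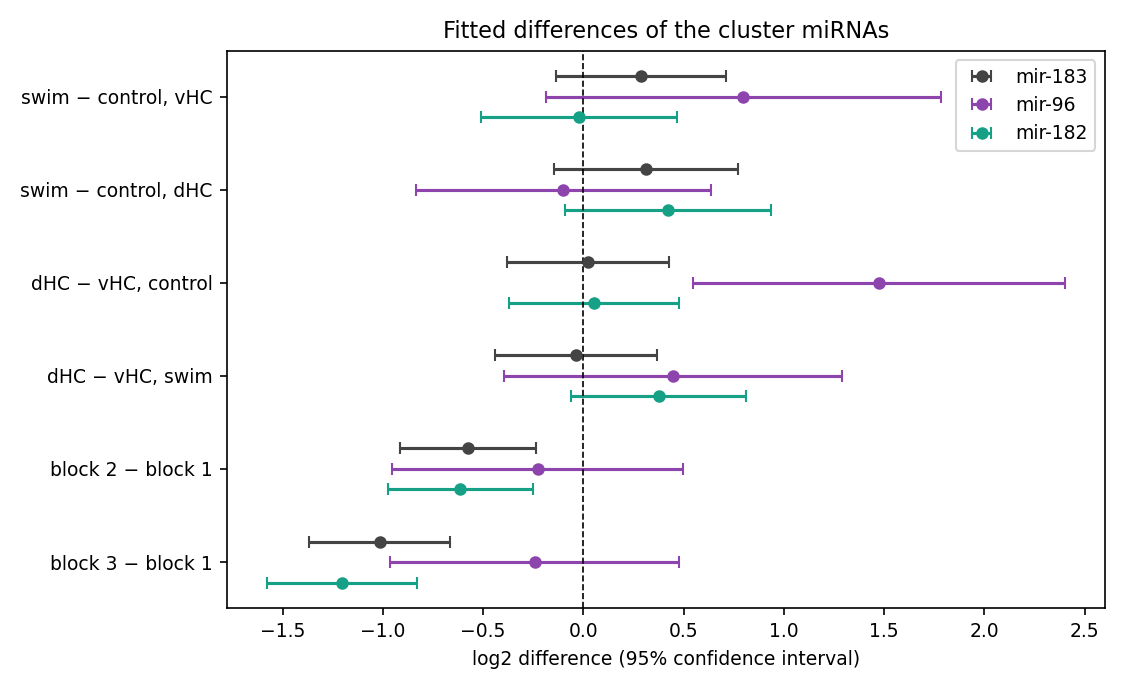
Fitted log2 differences (horizontal axis) of mir-183, mir-96 and mir-182 for stress in each region, region in control and in swim mice, and block 2 and block 3 against block 1, with bars for the 95% confidence interval. The intervals of mir-183 and mir-182 lie below 0 for both blocks, the interval of mir-96 lies above 0 for region in control mice (0.55 to 2.40), and all intervals for stress include 0.

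Marker miRNAs of other cell types differed between the regions too. As the background for these lists, 81 of the 463 entries were called higher in dHC and 86 lower. In bulk tissue, fewer cells of a type and less RNA per cell cannot be told apart. Oligodendrocyte miRNAs (mir-219a-1, mir-219a-2 and mir-338) were higher in dHC in 3 of 3 entries, with a median log2 difference of 0.58 against 0.0028 over all entries. Their summed level was 3322 to 4940 CPM in control vHC, 3639 to 4715 CPM in swim vHC, 4331 to 7619 CPM in control dHC and 4580 to 6943 CPM in swim dHC. Of 7 choroid plexus and ciliated cell miRNAs, 5 were tested and 5 were higher in dHC (median 0.60), among them mir-34c (0.82, SE 0.15) and mir-449a (0.73, SE 0.15). Their summed level was 2164 to 3282 CPM in control vHC, 2358 to 3244 CPM in swim vHC, 3087 to 5937 CPM in control dHC and 2457 to 4596 CPM in swim dHC. Epithelial miRNAs of the mir-200 family moved the other way: 5 of 5 were lower in dHC, with a median of -1.07, and their sum was 402 to 617 CPM in control vHC and 128 to 328 CPM in control dHC. The part of these cell types in the level of mir-96 was not tested.

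In the other marker lists only some or none of the entries were called, against the same background of 81 higher and 86 lower among 463 entries. Of 4 neuroendocrine entries 3 were lower in dHC, of 5 blood entries 2 were lower and of 8 neuronal entries 2 were lower, while 0 of 4 microglial and 0 of 3 endothelial and mural entries were called. A list of miRNAs studied in memory and neuronal activity (mir-132, mir-212, mir-134, mir-138 and mir-124), set beside the cluster because of its link to memory, had 2 of 8 entries higher in dHC, mir-138-1 (0.34, SE 0.10) and mir-138-2 (0.33, SE 0.10), known as regulators of dendritic spines. The neuroendocrine calls were mir-7a-1, mir-7a-2 and mir-7b, at similar levels (4792, 4785 and 4453 CPM), and the blood calls were mir-486a and mir-486b. Such entries of the same family are not independent of each other. In every list 0 entries were called for stress in vHC or dHC.

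Between blocks, mir-183 and mir-182 differed, and mir-96 did not pass the test. The level of mir-183 was 15.5 ± 4.70 CPM in block 1 (SD, n = 10), and it was 10.8 ± 2.97 CPM in block 2 and 7.56 ± 1.58 CPM in block 3 (SD, n = 8 each). For mir-182 it was 24.9 ± 5.61, 17.3 ± 6.53 and 11.2 ± 2.67 CPM. In all 4 groups every block 1 library was above every block 3 library for both. For mir-96 the levels were 1.55 ± 1.03, 1.42 ± 0.996 and 1.34 ± 0.828 CPM, and that order held in 1 of 4 groups. The order rests on 2 libraries a group in each block, apart from 4 for control vHC in block 1. How many of all tested entries show it was not counted, so it is only a description.

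The test over the 3 blocks gave an edgeR adjusted p of 5.22e-05 for mir-183, 1.66e-05 for mir-182 and 0.834 for mir-96. It called 246 of 463 entries (53.1%), so a difference between blocks was common among miRNAs. Against block 1, mir-183 was lower in block 2 by a log2 difference of -0.58 (SE 0.17, edgeR adjusted p = 0.00513) and in block 3 by -1.02 (SE 0.17, edgeR adjusted p = 2.91e-05). The values of mir-182 were -0.61 (SE 0.18, edgeR adjusted p = 0.00534) and -1.20 (SE 0.18, edgeR adjusted p = 7.94e-06). Of the 463 entries, 52.5% differed between block 2 and block 1 and 29.8% were lower in block 2. Between block 3 and block 1, 52.1% differed and 30% were lower in block 3. In the latter comparison mir-182 ranked 25th and mir-183 33rd of 463 by p.

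For mir-96 the differences from block 1 were -0.23 (SE 0.37) in block 2 and -0.24 (SE 0.37) in block 3, with edgeR adjusted p of 0.686 and 0.698. The interval for block 3 was -0.97 to 0.48, which overlaps the interval of mir-182 for block 3, -1.58 to -0.83. Whether mir-96 and mir-182 differ in their change between blocks was not tested. The log2 ratio of mir-96 to mir-182 was -4.16 ± 1.31 in block 1 (SD, n = 10), and it was -3.56 ± 1.37 and -3.00 ± 0.62 in blocks 2 and 3 (SD, n = 8 each), which was not tested. Here 0.5 was added to each count. The mir-96 counts of 0 in swim vHC library 15 (block 1) and swim dHC library 22 (block 2) thus enter as ratios of 0.00654 and 0.0127. They lower the means of blocks 1 and 2. Between blocks 2 and 3 the log2 differences were -0.44 for mir-183 (SE 0.19, edgeR adjusted p = 0.376) and -0.59 for mir-182 (SE 0.20, edgeR adjusted p = 0.298). There 0 of 463 entries were called, with 51 (11%) at an unadjusted p under 0.05. DESeq2 also called 0 there.

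As shares of the variance of log2 CPM over the 26 libraries, block accounted for 59.8% in mir-183, 61.4% in mir-182 and 0.315% in mir-96, where the median of the tested entries was 23.7%. Region accounted for 0.108%, 2.13% and 24.1% (median 7.46%), and stress for 6.50%, 1.41% and 0.601% (median 1.66%). The biological coefficient of variation left after group and block was 0.178 for mir-183 and 0.222 for mir-182, against a median of 0.177. Its value for mir-96, 0.128 against a median of 0.189 without the filter, rests on counts of at most 12.

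The members were then compared with each other. Over the 26 libraries mir-183 and mir-182 varied together, with Pearson's r = 0.87 and Spearman's rho = 0.87 of log2 CPM (permutation p = 1e-05 for both, the smallest that 100000 resamples can give, adjusted p = 3e-05 over 3 pairs). Without the 2 libraries farthest from the median of mir-183, r was 0.86. Both differed between blocks, and within blocks 1, 2 and 3 r was 0.81, 0.84 and 0.17 (n = 10, 8 and 8). Within vHC r was 0.93 (n = 14) and within dHC 0.80 (n = 12). After group and block were taken out, r was 0.68 and rho 0.61 (permutation p = 0.00014 and 0.00136, adjusted p = 0.00042 and 0.00408).

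Among 106953 pairs of tested entries the median r was 0.0083, and 0.663% of pairs had a higher r than mir-183 and mir-182. On the values without group and block, the median was 0.024 and 3.43% of pairs were higher. The labels do not say which dHC and vHC libraries came from the same mouse, so the 26 libraries may not all be independent.

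No such relation was found for mir-96. Its r with mir-183 was -0.096 (rho -0.029, permutation p = 0.641 and 0.886, adjusted p = 0.961 and 0.886), and its r with mir-182 was -0.0095 (rho 0.062, permutation p = 0.964 and 0.764, adjusted p = 0.964 and 0.886). Within blocks the r of mir-96 with mir-182 was -0.019, -0.46 and 0.67, and with mir-183 it was -0.15, -0.67 and 0.38. Without the 2 libraries farthest from the median of mir-96, r with mir-182 was 0.32, and without the 2 farthest from the median of mir-183, r with mir-183 was -0.019. After group and block were taken out, r was -0.28 with mir-182 and -0.36 with mir-183 (permutation p = 0.162 and 0.0669, adjusted p = 0.162 and 0.100). With counting error at 53.5% of the value at its median count, a relation of mir-96 to its neighbours may not be detectable at this depth.

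**Figure D3:**
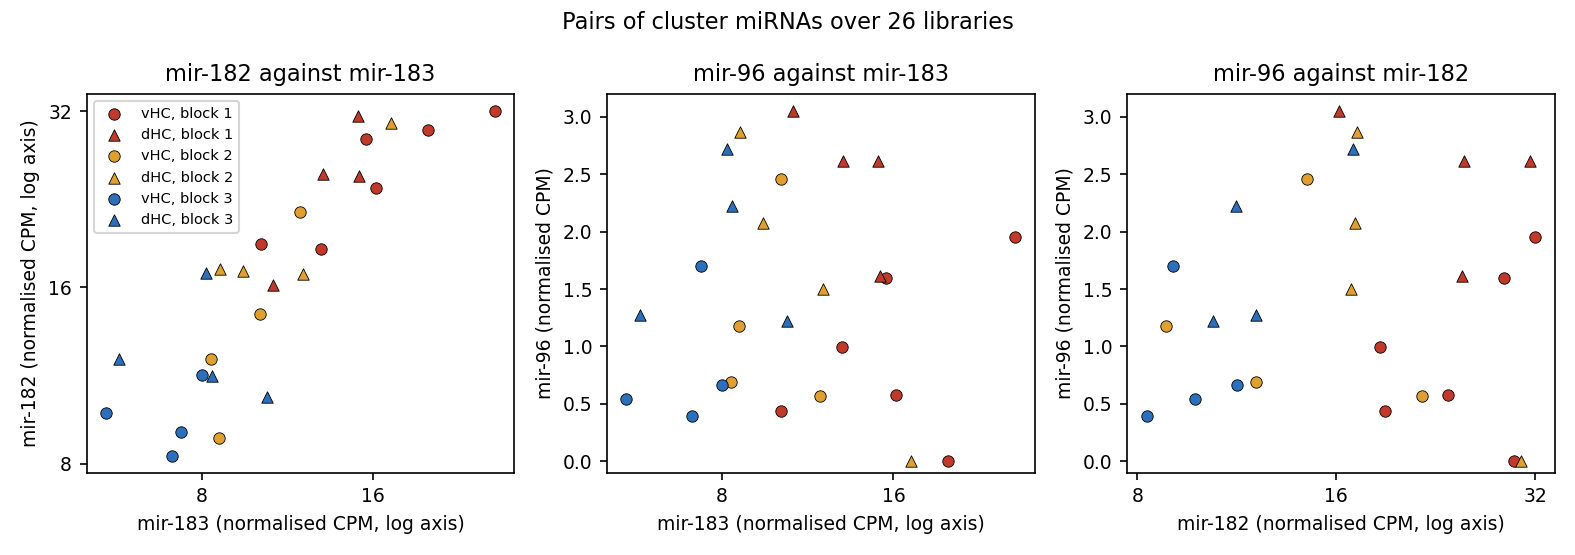
Each pair of cluster miRNAs over the 26 libraries, on normalised CPM axes (log axes for mir-183 and mir-182, a linear axis for mir-96), with circles for vHC, triangles for dHC and colours for block. The points of mir-182 against mir-183 lie along a rising band (r = 0.87) from block 3 to block 1, and those of mir-96 against either neighbour do not (r of -0.096 and -0.0095).

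Ratios between members do not depend on the scaling of a library, although the number added to each count weighs more where counts are low. The log2 ratio of mir-182 to mir-183 was 0.70 ± 0.23 in block 1 (SD, n = 10), against 0.62 ± 0.29 in block 2 and 0.54 ± 0.39 in block 3 (SD, n = 8 each), with 0.5 added to each count, and these differed by less than their spread. In vHC it was lower after swim, at 0.36 ± 0.19 (SD, n = 6) against 0.65 ± 0.24 (SD, n = 8), a difference of -0.29 that did not pass the adjustment (exact permutation p = 0.0426, adjusted p = 0.192 over 9 tests). Over all libraries, with permutation within block, it was 0.22 higher in dHC than in vHC, which did not pass either (permutation p = 0.0679, adjusted p = 0.204 over the same 9 tests). In swim mice alone it was 0.39 higher in dHC than in vHC (exact permutation p = 0.0216, adjusted p = 0.0433 over 6 tests added after seeing the data), and in control mice 0.061 higher (exact permutation p = 0.707, adjusted p = 0.849).

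The ratio of mir-96 to its neighbours differed between the regions of control mice. The log2 ratio of mir-96 to mir-182 was -2.75 ± 0.42 in dHC (SD, n = 6) and -4.21 ± 0.49 in vHC (SD, n = 8), a difference of 1.45 (exact permutation p = 0.000666, adjusted p = 0.004 over the same 6 tests). For mir-96 to mir-183 the difference was 1.51 (exact permutation p = 0.00133, adjusted p = 0.004). As shares of the cluster's counts, mir-96 made up 35 of 474 counts in control dHC, or 7.38% (95% exact binomial interval 5.20% to 10.1%), and 14 of 540 in control vHC, or 2.59% (1.42% to 4.31%). By library the shares were 5.56% to 10.2% in control dHC and 1.43% to 3.48% in control vHC, so that these groups did not overlap, although each share rests on 1 to 10 counts of mir-96. Control dHC library 24, left out of the order of levels above, is included in these ratios and shares. It holds 1 count of mir-96 among 10 of the cluster, and at that depth any count above 0 puts its share above control vHC.

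After swim the shares of mir-96 were 34 of 566 counts in dHC, or 6.01% (4.20% to 8.29%), and 21 of 494 in vHC, or 4.25% (2.65% to 6.42%), and by library they ran from 0% to 10.2% and from 0% to 9.38%, so that these groups did overlap. The intervals cover counting error only. Over all libraries with permutation within block, the region difference of the log2 ratio was 0.73 to mir-182 (permutation p = 0.115, adjusted p = 0.258 over 9 tests) and 0.95 to mir-183 (permutation p = 0.0376, adjusted p = 0.192). Within blocks the former was 1.61, -0.25 and 0.62. The mir-96 count of 0 in swim vHC library 15 raises the value of block 1, and that in swim dHC library 22 lowers the value of block 2.

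**Figure D4:**
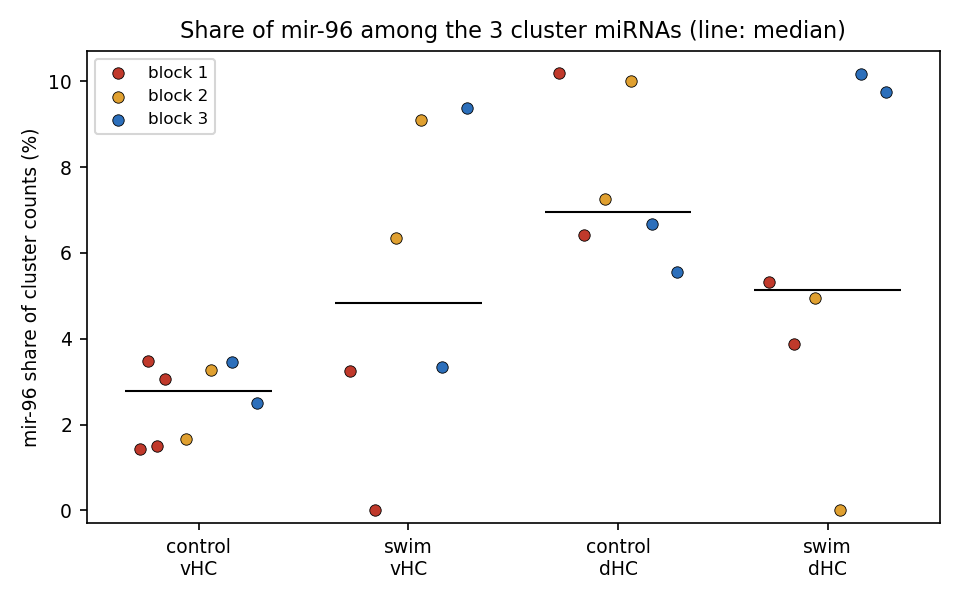
Share of mir-96 among the counts of the 3 cluster miRNAs (vertical axis, %) in each library by group, with points coloured by block and a line at the group median. All control dHC libraries (5.56% to 10.2%) lie above all control vHC libraries (1.43% to 3.48%), and the swim groups overlap. Control dHC library 24 is included, with 1 count of mir-96 among 10 of the cluster.

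The entries whose levels followed the cluster most closely were found by Spearman's rho with the mean log2 CPM of the 3 members over the 26 libraries, and are given as a description. They were mir-19b-1 and mir-19b-2 (both 0.75) and mir-19a (0.74), all of the mir-17/92 or related clusters, then mir-195a (0.72) and mir-124-1 (0.71), one of the genes of the neuronal mir-124. With each single member the rho of these 5 was lower, between 0.46 and 0.55. All 5 were highest in block 1, for example mir-19a with 71.9 CPM there against 38.0 and 39.4 CPM in blocks 2 and 3. After group and block were taken out, the 5 highest were mir-490 (0.63), mir-425, mir-135a-2, mir-29a and mir-135a-1 (all 0.48). Each of these 5 had a higher rho with mir-96 (0.48 to 0.68) than with mir-183 (-0.13 to 0.037) or mir-182 (-0.12 to 0.24).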

How the data were processed

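Small RNA was measured in 26 libraries (Trizol, NEXTflex v3) whose groups and blocks were taken from the labels. Before deposit the authors removed adapters (cutadapt), merged reads of equal sequence and molecular tag and assigned them to annotated RNAs with Sports, so that PCR copies count once. The deposited values are expected counts (29.5% not whole) without normalization, and the submitters' processing notes name GRCm38. Here they were rounded and tested with edgeR 4.0.16 (quasi-likelihood, TMM, filterByExpr with minimum count 10 and total 15, 463 of 1054 miRNA entries, Benjamini-Hochberg), sva 3.50.0 for the 2 surrogate variables and DESeq2 1.42.0 as an alternative, in R 4.3.3. Log2 CPM used a prior count of 2, and permutation tests (two-sided, SciPy 1.17.1) were exact within region or drew 100000 resamples. Total miRNA counts were 465387 to 4819724 per library, which sets the counting error given in the text. Scripts were tested on simulated data.

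The members and lists were chosen with earlier results of these data known. All 3 members are named, with the 5 entries most alike on each scale, and list members only where they differed by region. The table had 0 columns without a sample. The labels do not say that libraries of a group came from separate mice, so p-values measure the spread between libraries. miR-1271, and tRNA and rRNA entries, were not analysed here.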

Additional observations from a re-analysis of the deposited data

How the results depend on the processing

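No paired analysis was run, because the library numbers in the labels are not shared between groups and no label ties a dHC to a vHC library of the same mouse. Every dHC library carries the number after that of a vHC library of the same condition and block, and control vHC libraries 1 and 9 have no such partner. Whether these are pairs is not stated. The tests of region and of covariation treat all libraries as independent, which would not hold if they are. The alternatives for mir-96 and the permutation tests of region within control or swim mice were added after seeing the data. Results near 0 changed sign with the processing. With DESeq2's size factors, TMMwsp, no surrogate variables and block in place of them, the stress difference of mir-182 in vHC was 0.010, 0.030, 0.0038 and 0.091. With the first, second and last of these, the interaction of mir-183 was -0.048, -0.052 and -0.059. The region difference of mir-183 was 0.022 with size factors, 0.010 with TMMwsp and 0.030 when permuted within block, and mir-96 differed by 0.0074 between blocks 3 and 2 with TMMwsp. In the tests of log2 CPM, mir-183 differed by region by -0.13 in control and 0.036 in swim mice, and mir-182 by -0.058 in control mice. With neither block nor surrogate variables these were -0.13 for mir-183 and -0.11 for mir-182 in control mice, and 100, 67 and 56 entries were called for region, in control and in swim mice, against 167, 104 and 94.

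With surrogate variables in place of block, 85 were called for region and 59 in swim mice. Here the second variable follows region (91.1%), and mir-183 stood at 1.58 (1.60 in swim mice) and mir-182 at 2.11 (2.33 in swim mice), the latter past the threshold (edgeR adjusted p = 0.0404 and 0.0349). In that fit mir-96 was at -0.20, 0.25 in control and -0.65 in swim mice. With DESeq2 mir-96 was at 0.99 for region and 1.53 in control mice, both no longer called, and 0.67 when permuted within block, not called either. In control mice the region difference of the log2 ratio of mir-96 was smaller over 2 alternatives. To mir-182 it was 1.05 to 1.32 and to mir-183 1.08 to 1.35 (exact permutation adjusted p of 0.00932 to 0.00999 for both). The r of mir-96 with mir-182 was 0.033 without TMM and 0.32 without the 2 farthest libraries, and the ratio of the pair in swim mice differed by -0.070 between regions with 2 added to each count in place of 0.5. With 0 added, the log2 ratio of mir-96 is not defined in swim vHC library 15 and swim dHC library 22, which held 0 counts. Ratios of mir-96 were left out of that alternative in all groups, also in control mice. The cause of these changes was not tested.

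Without each library in turn, the stress difference of mir-182 in vHC was between -0.12 and 0.16, the interaction of mir-183 between -0.21 and 0.20, and its region difference between -0.071 and 0.078, -0.11 and 0.15 in control and -0.17 and 0.14 in swim mice. For mir-96, region in control mice was between 1.33 and 1.71, stress in dHC between -0.21 and 0.0036 and block 3 against block 2 between -0.19 and 0.20. Between blocks 2 and 3 from 0 to 1 entries were called. The block differences of mir-183 and mir-182 against block 1 kept their direction and their call in all 31 alternatives. With DESeq2's size factors 137 entries were higher and 119 lower in block 2 than in block 1 (against 105 and 138), and with TMMwsp 130 higher and 108 lower in block 3 (against 102 and 139). Of all values recomputed, 1377 were counted as the same, 81 reversed, 5 lost the call, 2 passed the threshold and 6 counts moved. For tests, the same means an unchanged side of the threshold, and an unchanged direction where the test has one. Counts of called entries have neither, and for them it means a change within a set fold. Depth limits mir-96 most, with a median of 3.5 counts.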
